A study of Homo sapiens with 24 samples.

Results

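The human mitochondrial genome contributed 37 of the 37416 gene rows in this RNA-seq study of ADAR1 loss in breast cancer cells. The rows were chosen by their chromosome entry alone, MT, and fell into 2 ribosomal RNA (rRNA) genes, 22 transfer RNA (tRNA) genes and 13 protein-coding genes. The cells were 4 established lines of triple-negative breast cancer (TNBC in the labels), BT549, HCC1806, MDAMB231 and MDAMB468. A lentivirus delivered either the knockdown hairpin, shADAR1, or the control hairpin, shNT. Each of the 8 groups had 3 biological replicates, 24 libraries in all. All groups shared the same handling: infection for 24 h with protamine sulfate at 10 µg/ml, then puromycin selection at 2 µg/ml for 72 h. Total RNA was isolated with the miRNeasy kit and DNase, and libraries were built from 1 µg of it with the KAPA RiboErase kit, which removes rRNA before sequencing. The labels do not give the hairpin sequence or how many hairpins were used, nor do they say whether replicates were separate transductions, so p-values measure the spread between these libraries.

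Mitochondrial DNA is transcribed from both strands into long precursor RNAs, and most of its tRNA genes sit between the longer genes. RNase P and the enzyme ELAC2 cut the precursors at the tRNA ends, which frees the rRNAs and mRNAs. The mRNAs encode core subunits of respiratory complexes I, III and IV and of the ATP synthase (complex V), and many of them gain the end of their stop codon only when a poly(A) tail is added. The nuclear gene ADAR encodes ADAR1, which edits adenosine to inosine in double-stranded RNA.

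All 37 rows had the same coordinates as in GENCODE 29 on GRCh38, and the sequences here are the GENCODE 29 transcripts of that build, read 5′ to 3′. The files list 28 genes on the plus strand and 9 on the minus strand, the latter being MT-ND6 and 8 tRNA genes. Among the tRNA genes, 4 are shown because the counts turned on them: the most and the second most counted (MT-TP and MT-TY), the least counted (MT-TV), and MT-TT, which lies beside MT-TP on the other strand. The capitals mark the middle 3 bases of a loop of 7 bases closed by a stem of at least 4 pairs, which is the place of the anticodon.
MT-TP: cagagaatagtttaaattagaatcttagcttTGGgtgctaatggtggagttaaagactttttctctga
MT-TY: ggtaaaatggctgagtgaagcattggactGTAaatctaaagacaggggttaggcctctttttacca
MT-TT: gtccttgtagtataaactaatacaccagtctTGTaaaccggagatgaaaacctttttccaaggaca
MT-TV: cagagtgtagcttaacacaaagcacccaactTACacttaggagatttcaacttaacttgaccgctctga

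These genes lie at MT:15956-16023 on the minus strand (MT-TP, tRNA for proline), MT:5826-5891 on the minus strand (MT-TY, tyrosine), MT:15888-15953 on the plus strand (MT-TT, threonine) and MT:1602-1670 on the plus strand (MT-TV, valine). Mitochondrial tRNAs receive their terminal CCA after cleavage, and MT-TY was the 1 gene of 22 whose listed sequence already ended in these letters. The tRNA genes span 59 to 75 bases. The protein-coding genes span 207 to 1812 bases, and 6 of the 13 (MT-ND1, MT-ND2, MT-CO3, MT-ND3, MT-ND4 and MT-CYB) lack a complete stop codon. The last 15 bases of the top-ranking gene in HCC1806 (MT-ND1), of MT-ND4 and of the top-ranking gene in MDAMB468 (MT-CO2) show the difference: the first ends in TA, the next in T, and MT-CO2 in a whole TAG.
MT-ND1: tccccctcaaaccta
MT-ND4: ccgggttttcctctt
MT-CO2: gtatttaccctatag

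Total counts ran from 10370645 to 97218217 per library, with MDAMB231 shNT replicate 1 the smallest. ADAR, the targeted gene, was lower in shADAR1 in every line, by log2 fold changes of -1.94, -1.59, -2.19 and -1.43 in BT549, HCC1806, MDAMB231 and MDAMB468 (edgeR quasi-likelihood test, largest adjusted p = 3.2e-05). With only the 6 libraries of HCC1806 in the fit, its adjusted p was 0.213. None of the 5 epithelial markers passed 0.894 CPM (the count scaled to a common library total) in BT549. MDAMB231 was mixed, with EPCAM at most 10.9 and CDH1 at most 0.375 but KRT8 at least 441, KRT18 at least 196 and KRT19 at least 250. HCC1806 and MDAMB468 had 183 CPM or more of each. ESR1, the oestrogen receptor gene and part of the triple-negative definition, ranged from 18 to 26.8 CPM in HCC1806 and from 5.68 to 8.14 in MDAMB468. ERBB2, also part of that definition, lay between 69.8 and 118 CPM over the lines, and PGR reached at most 0.923. Receptor protein was not measured here, so these RNA levels do not test the label. Among the leukocyte markers, PTPRC reached at most 0.801 CPM and CD3E at most 0.12. CD68, listed with them, was not absent. It ranged from 78.4 to 99 CPM in MDAMB231, 43.3 to 53.1 in HCC1806, 17.2 to 24.1 in BT549 and 1.87 to 2.41 in MDAMB468.

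The 37 genes together took between 3.15% and 6.07% of all counts, and this share differed by line more than by hairpin. Replicates are given in the order 1, 2, 3. In BT549 the share was 3.15%, 3.27% and 4.08% in shNT and 3.53%, 3.45% and 3.48% in shADAR1. In HCC1806 it was 4.47%, 4.19% and 3.98% in shNT and 3.88%, 4.07% and 4.43% in shADAR1. The arms overlapped in both lines. In MDAMB231 it was 4.92%, 5.2% and 6.03% in shNT against 5.09%, 4.31% and 4.84% in shADAR1. In MDAMB468 it was 6.07%, 5.83% and 5.24% in shNT against 6.06%, 5.29% and 5.72% in shADAR1. Here too the arms overlapped, and MDAMB468 stood above BT549 and HCC1806 in every library. The log2 ratio of the group means, shADAR1 to shNT, was -0.01 for BT549, -0.03 for HCC1806, -0.18 for MDAMB231 and -0.01 for MDAMB468. In such bulk RNA, fewer mitochondrial transcripts per cell and more RNA of other genes cannot be told apart.

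**Figure D1:**
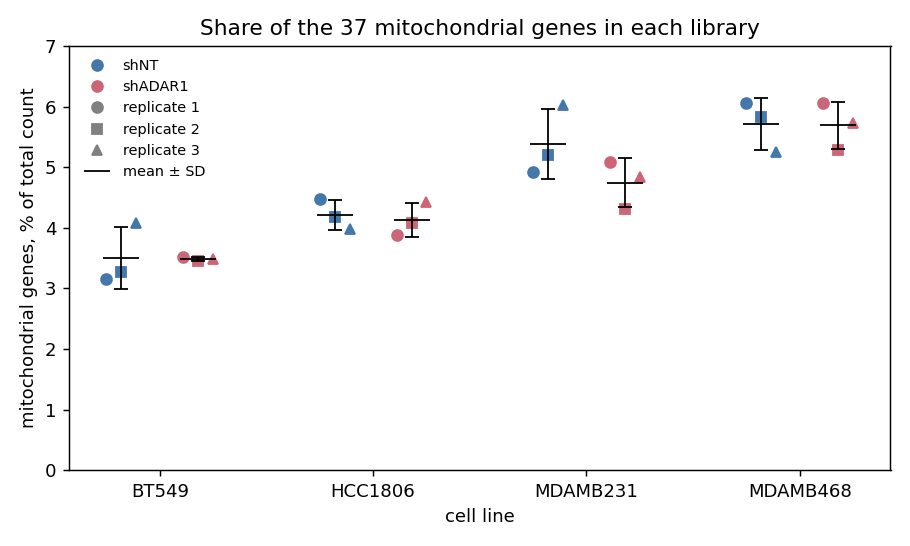
Share of the 37 mitochondrial genes in the total count of each library (vertical axis, percent), by cell line (horizontal axis); blue is shNT, red is shADAR1, symbols are replicates and bars the mean with 1 SD. The arms overlap in all 4 lines, and the shares run from 3.15% to 6.07%.

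Nearly all of this signal was protein-coding mRNA. The 13 protein-coding genes held at least 99.1% of the mitochondrial counts in every library (median 99.9%). The 2 rRNA genes held 0.00449% to 0.782%, and the 22 tRNA genes 0.0397% to 0.095%. Values of the rRNA genes are those left after the kit's rRNA removal, so the class shares describe the libraries and not the proportions in the cells.

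The ribosomal RNAs varied far more between replicates than the protein-coding genes did. MT-RNR1 (ENSG00000211459, MT:648-1601, plus strand) encodes the 12S rRNA of the small ribosomal subunit. In BT549 its counts were 46, 6513 and 5858 in shNT and 82, 10779 and 185 in shADAR1. In HCC1806 they were 1354, 36 and 460 in shNT and 66, 118 and 70 in shADAR1. Single libraries of a group were far above or below the rest, and neither arm stood clear of the other. In MDAMB231 the counts were 89, 7121 and 6267 in shNT and 398, 1922 and 3730 in shADAR1. In MDAMB468 they were 270, 923 and 98 in shNT and 1155, 30 and 117 in shADAR1. As CPM, the highest replicate of a group exceeded the lowest by 2.82 to 178 times over the 8 groups (median 49.4).

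MT-RNR2 (ENSG00000210082, MT:1671-3229, plus strand), which encodes the 16S rRNA of the large subunit, varied in the same libraries. Its counts in BT549 were 69, 9371 and 7521 in shNT and 62, 15463 and 359 in shADAR1. In HCC1806 they were 2917, 105 and 1104 in shNT and 132, 171 and 315 in shADAR1. In MDAMB231 they were 108, 11572 and 6585 in shNT and 588, 3505 and 5123 in shADAR1. High and low libraries were mostly the same ones as for MT-RNR1: the ratio of MT-RNR2 to MT-RNR1 counts stayed between 0.756 and 4.5 over all 24 libraries. In MDAMB468 MT-RNR2 had 360, 975 and 185 counts in shNT and 1701, 95 and 249 in shADAR1. The highest replicate of a group exceeded the lowest by 1.23 to 153 times (median 31.4). For the 13 protein-coding genes the same measure ran from 1.01 to 2.3 with a median of 1.18.

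**Figure D2:**
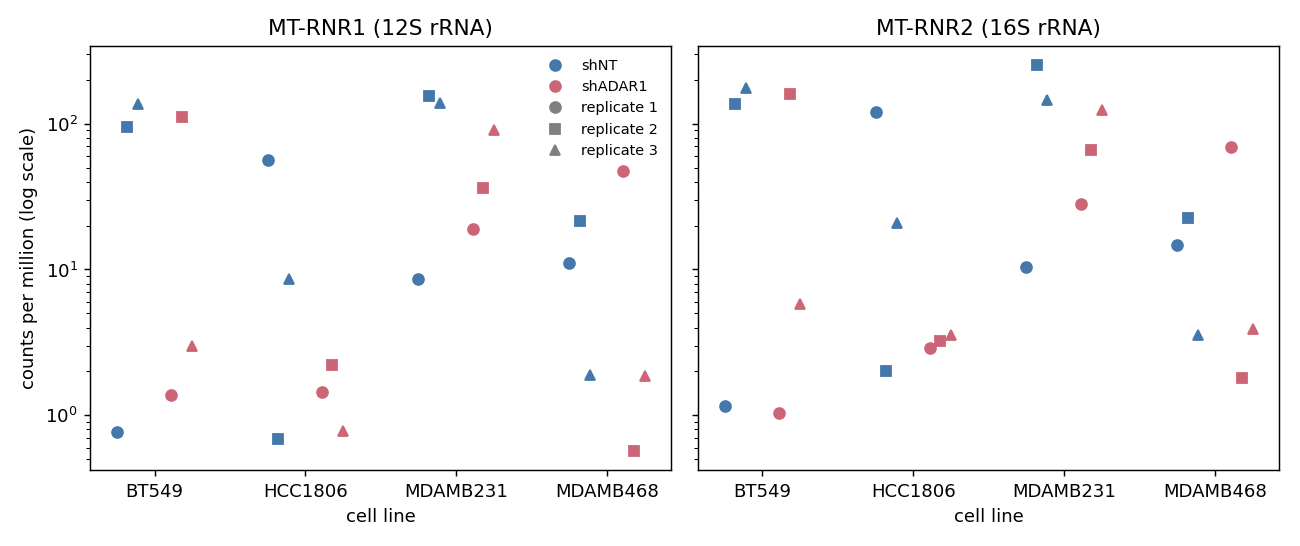
Deposited CPM (log axis) of MT-RNR1 and MT-RNR2 in each library, by cell line; blue is shNT, red is shADAR1, symbols are replicates. Replicates of 1 group lie up to 178-fold apart for MT-RNR1 and 153-fold for MT-RNR2, and the arms overlap in every line.

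The knockdown gave no call for either rRNA. The estimates farthest from 0 were those in HCC1806, with a log2 fold change of -3.89 for MT-RNR1 (SE 1.83) and -3.89 for MT-RNR2 (SE 1.71), each with an edgeR adjusted p = 1. Without HCC1806 shNT replicate 1, the library with 1354 and 2917 counts, they were -1.68 and -1.81. In the other 3 lines the estimates ran from -1.10 to 0.87, with SEs of 1.47 to 1.59. Cytosolic rRNA rows lay together between 31.5 and 94.4 CPM, with arms overlapping in every line. Whether the depletion step accounts for the spread of the mitochondrial rRNAs was not tested.

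Among the tRNA genes, MT-TP (ENSG00000210196) took 93.6% of all counts: 33695 of 35986 over the 24 libraries. The next were MT-TY with 845, MT-TC (cysteine) with 375 and MT-TF (phenylalanine) with 316. At the other end, MT-TR (arginine) had 14 counts, MT-TD (aspartate) 8 and MT-TV 4 in all 24 libraries together. MT-TT, whose end lies beside MT-TP on the opposite strand, had 51. The 4 sequences printed above are of similar length. Of the 22 genes, 18 were at 0 in at least 1 library, and a 0 allows up to 3 counts in that library by counting error alone.

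Counts were unequal between the strands on which the tRNA genes are listed. The 14 plus-strand tRNA genes summed to 736 counts. The 8 minus-strand genes summed to 35250, or 1555 without MT-TP. Whether the counting used strand is not given in the sources used here, so reads from the opposite strand cannot be told apart from a gene's own.

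**Figure D3:**
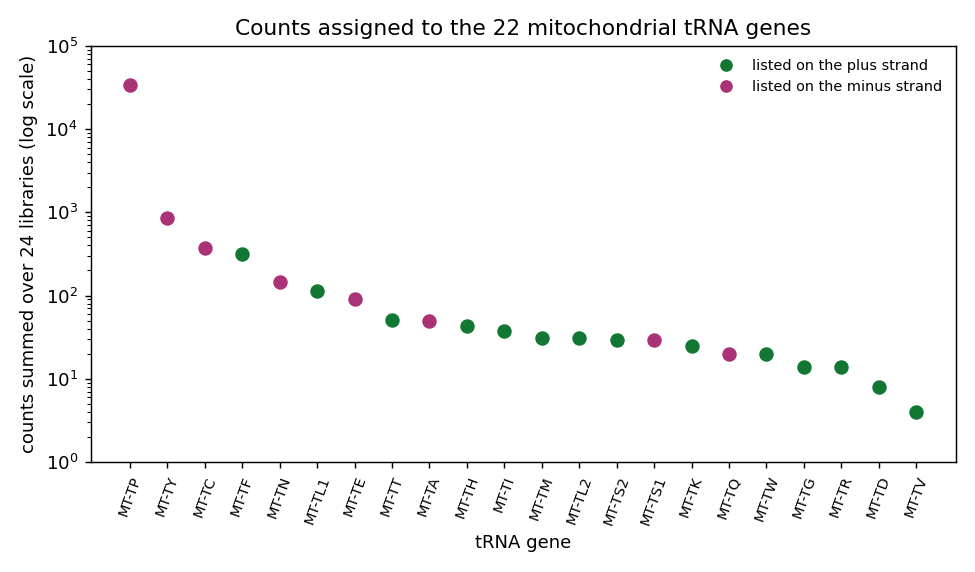
Counts summed over 24 libraries (log axis) for each of the 22 mitochondrial tRNA genes, ordered by total; green genes are listed on the plus strand and purple genes on the minus strand. MT-TP has 33695 counts and MT-TY, the next, 845.

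MT-TP was present in every library, from 206 to 3034 counts. In CPM scaled by TMM (trimmed mean of M-values, a correction for library composition), BT549 had 12.6, 15.9 and 20.1 in shNT and 14.9, 21.1 and 19.2 in shADAR1. HCC1806 had 37.9, 36.3 and 18 in shNT and 35, 34.3 and 24.6 in shADAR1. MDAMB231 had 19, 36.2 and 40.7 in shNT and 30, 27.9 and 32 in shADAR1. The arms overlapped in these 3 lines and BT549 was the lowest of the 4 by group mean. In MDAMB468 MT-TP stood at 44.5, 41.5 and 33.5 in shNT and 39.7, 33.7 and 44.9 in shADAR1, again overlapping. The only protein-coding gene on its strand, MT-ND6, was counted far more often: MT-TP had 21.9 to 57.8 counts per 1000 counts of MT-ND6.

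A filter on low counts (edgeR's filterByExpr) kept 21 of the 37 genes: both rRNA genes, 6 tRNA genes (MT-TP, MT-TY, MT-TC, MT-TF, MT-TN and MT-TL1) and all 13 protein-coding genes. The other 16 tRNA genes were not tested. A gene that is high in 1 group alone can pass this filter, so a count among the 6 is not a count among all 22. In 2 of the 16 untested genes the arms did not overlap in 1 line, with shADAR1 higher, as in 4.38% of all tested genes in HCC1806 and 7.19% in MDAMB231: MT-TG (glycine) had 0, 0 and 0 counts in shNT of HCC1806 and 2, 1 and 2 in shADAR1, and MT-TS2 (a serine tRNA) had 0, 1 and 0 in shNT of MDAMB231 and 1, 3 and 2 in shADAR1.

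Levels of the protein-coding genes can be compared only per length, as the deposited RPKM (CPM per kilobase of gene length). The leading gene differed by cell line. In shNT of BT549, MT-CO1, the catalytic subunit of cytochrome c oxidase (complex IV), led with 5201 ± 345 RPKM (SD, n = 3). In shNT of HCC1806 the first was MT-ND1, a complex I subunit (ENSG00000198888, MT:3307-4262), with 6065 ± 721. In MDAMB231 and MDAMB468 MT-CO2, which carries the copper site that takes electrons from cytochrome c, led with 7659 ± 927 and 9308 ± 682. MT-CO1 followed it at 7633 ± 401 and 8532 ± 620, and in neither line did all MT-CO2 libraries exceed all MT-CO1 libraries. MT-CO1 in shNT of BT549 and MT-ND1 in HCC1806 likewise overlapped with MT-ND4, the gene ranked after them. The first-ranked genes were those of the same line in shADAR1: MT-CO1 with 5300 ± 225, MT-ND1 with 5919 ± 65.3, and MT-CO2 with 6920 ± 335 and 9123 ± 472.

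At the low end the lines were more alike. MT-ATP8, a small subunit of the ATP synthase, was the lowest in 6 of the 8 groups, with group means of 803 to 1322 RPKM in BT549, HCC1806 and MDAMB468. In MDAMB231 MT-ND6, the complex I subunit on the minus strand, was the lowest with 1524 ± 386 in shNT and 1251 ± 220 in shADAR1. MT-ND3, another small complex I subunit, came next or nearly so, with 1030 ± 377 in shNT of BT549 and 1860 ± 371 in shNT of MDAMB231. MT-ATP8 was not separated from the gene ranked before it in any of the 8 groups.

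**Figure D4:**
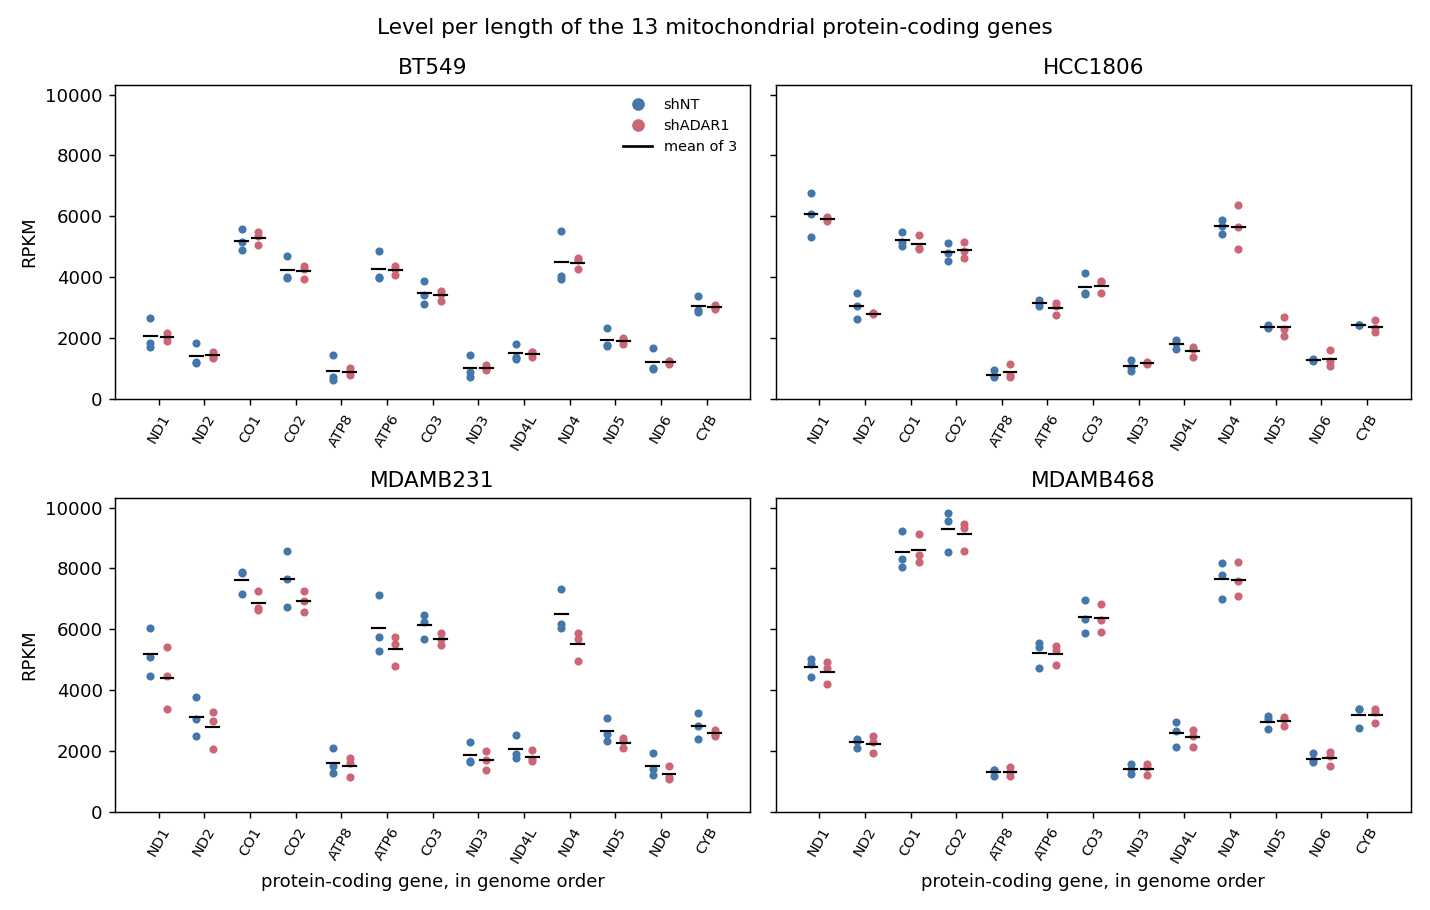
Deposited RPKM of the 13 protein-coding genes in genome order, 1 panel per cell line; blue points are shNT libraries, red points shADAR1 libraries and black lines the mean of 3. MT-CO1 leads in BT549, MT-ND1 in HCC1806 and MT-CO2 in MDAMB231 and MDAMB468, in both arms.

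MT-ND1 differed most between lines among the protein-coding genes, by log2 fold change. It made up 5.14%, 5.39% and 6.25% of protein-coding mitochondrial counts in shNT of BT549, against 14.6%, 13.9% and 12.8% in HCC1806. MDAMB231 had 9.89%, 8.27% and 9.61%, and MDAMB468 had 7.93%, 7.99% and 8.07%. In shNT, the HCC1806 libraries all lay above and the BT549 libraries all below those of the other lines. Relative to MT-CO1, MT-ND1 RPKM was 34.7%, 35.5% and 47.5% in shNT of BT549. In HCC1806 it was 123%, 118% and 106%, so that the order of these genes was the opposite. The shADAR1 libraries gave 34.9% to 42.9% in BT549 and 110% to 121% in HCC1806.

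By complex, the 7 complex I genes held 54.3%, 54.3% and 53.3% of protein-coding counts in shNT of HCC1806. In BT549, MDAMB231 and MDAMB468 together the shNT libraries held 40% to 46.6%. MT-CYB, the cytochrome b of complex III, held 10.5%, 10% and 9.54% in shNT of BT549, and between 5.59% and 6.94% in shNT of the other 3 lines. The pair of ATP synthase genes held 5.29%, 5.65% and 5.58% in HCC1806 and 9.08%, 8.78% and 8.89% in BT549. The libraries set against each other here did not overlap. In shADAR1 the complex I share was 52.7%, 54.4% and 54.4% in HCC1806, MT-CYB held 10%, 9.93% and 9.73% in BT549, and the ATP synthase genes held 5.21%, 5.53% and 5.39% in HCC1806.

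A joint test of the 4 shNT groups asked which genes differed between lines in the absence of knockdown. It called 16 of 21 mitochondrial genes, at a background of 85.9% of all 21352 genes tested, a share that the mitochondrial genes did not exceed. They were 11 of 13 protein-coding genes, all but MT-CYB (edgeR adjusted p = 0.0726) and MT-ND6 (adjusted p = 0.262), 5 of 6 tRNA genes and neither rRNA (lowest adjusted p = 0.193). The 11 protein-coding genes were called under every alternative setting tried. MT-CYB was called too with scaling that left out the mitochondrial and cytosolic rRNA rows. It was also called without certain single libraries, among them each library of MDAMB468. MT-ND6 was called without BT549 shNT replicate 3. MT-TY, MT-TL1 or MT-TN lost the call when certain single libraries were left out (without BT549 shNT replicate 1, all 3 did, leaving 13 genes called).

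Wherever a complex I or complex IV gene was called in a pair that included BT549, it was lower in BT549. MT-ND1 was lower in BT549 than in HCC1806 by a log2 fold change of -1.60 (SE 0.15, edgeR adjusted p = 2.6e-09), than in MDAMB231 by -1.28 and than in MDAMB468 by -1.04. MT-ND2, also of complex I, differed by -1.14, -1.08 and -0.51 in the same pairs, each past the threshold. MT-CO2 was lower in BT549 than in MDAMB468 by -0.96 (SE 0.10, edgeR adjusted p = 9.3e-09) and than in MDAMB231 by -0.80. MT-CO3, a structural subunit of complex IV, gave -0.76 against MDAMB231 and -0.70 against MDAMB468, while the difference from HCC1806, -0.11, was not called. MT-ND4 was lower in BT549 in all 3 pairs, by -0.37, -0.48 and -0.59.

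MT-ATP6, the proton channel subunit of the ATP synthase, differed in direction by pair. It was higher in BT549 than in HCC1806 by 0.41 (SE 0.11, edgeR adjusted p = 0.0017) and lower in BT549 than in MDAMB231 by -0.44 (adjusted p = 0.001). Its difference from MDAMB468, -0.11, was not called, and it was lower in HCC1806 than in MDAMB231 by -0.85. MT-CYB was higher in BT549 than in HCC1806 by 0.30 (adjusted p = 0.0154) although its joint test missed the threshold. Counting pairs, BT549 against MDAMB231 had 11 of 13 protein-coding genes called, all lower in BT549 (background 56.5%). BT549 against MDAMB468 had 8, all lower in BT549 (background 61%). BT549 against HCC1806 had 7, of which 5 were lower and 2 higher in BT549 (background 63.5%). HCC1806 against MDAMB231 had 6 (background 59%), HCC1806 against MDAMB468 had 6 (background 62.9%) and MDAMB231 against MDAMB468 had 3 (background 61.8%).

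Calls among the 6 tested tRNA genes were mostly in pairs with BT549. BT549 was lower for 5 of 6 against HCC1806 (background 63.5% of all genes), 2 of 6 against MDAMB231 (56.5%) and 4 of 6 against MDAMB468 (61%). The other pairs had 1, 0 and 1 called, and MT-TF was called in none. MT-TP was lower in BT549 than in HCC1806 by -0.92, and than in MDAMB468 by -1.30 (edgeR adjusted p = 0.0031 and 0.00012), and it was also called lower than in MDAMB231 (adjusted p = 0.0018). MT-TC was lower in BT549 than in HCC1806 by -1.95, and MT-TY by -1.61. MT-TN (asparagine) differed by -2.43 and MT-TL1 (a leucine tRNA) by -2.88 in the same pair, with SEs of 0.78 and 1.08. These last 4 genes rest on few counts: MT-TY, the most counted of them, had 4, 24 and 16 in shNT of BT549 and 25, 37 and 34 in HCC1806. Over all libraries the median counts of MT-TC, MT-TN and MT-TL1 were 13.5, 5 and 4.5. Such a gene can pass the filter through the lines where it is high. These calls therefore do not describe the tRNA genes as a class.

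Knockdown of ADAR1 gave no call among the mitochondrial genes. edgeR's quasi-likelihood test called 0 of 21 in BT549 (background 0.473% of all genes), 0 in HCC1806 (0.0468%), 0 in MDAMB231 (2.01%) and 0 in MDAMB468 (0.0375%). It called 0 for the mean of the 4 line effects (2.96%) and 0 for differences between the line effects (0.0234%). DESeq2 also called 0 in all 6 comparisons, at backgrounds of 1.84%, 0.199%, 5.34% and 0.332% in the lines, 8.26% in the mean and 0.835% between lines. With backgrounds this low, a count of 0 among 21 does not set the mitochondrial genes apart from other genes. At an unadjusted p under 0.05 there were 0 in BT549 (6.42% of all genes), 2 in HCC1806 (the rRNAs; 4.35%), 2 in MDAMB231 (MT-ND4 and MT-ND5; 11.7%) and 0 in MDAMB468 (3.76%). There were 0 in the mean (12.8%) and 0 in the difference (4.44%). With the replicate number as a block the calls stayed at 0 while the background was 5.14%, 2.1%, 11.4% and 1.66% in the 4 lines and 13.2% in the mean. On the TMM-scaled CPM the arms overlapped for all 21 genes in every line. Over all genes, shADAR1 stood wholly above shNT in 8.24% and wholly below in 6.43% in BT549, 4.38% and 3.2% in HCC1806, 7.19% and 7.01% in MDAMB231, and 6.69% and 4.3% in MDAMB468.

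Intervals for the protein-coding genes come from the fit without the replicate block. Replicate numbers were read as pairs in BT549, HCC1806 and MDAMB231, for which no paired intervals are given. Under the unpaired fit only, the intervals bound the effect on these genes in each line. In BT549 their log2 fold changes lay between -0.03 and 0.04, with SEs of 0.08 to 0.23. In MDAMB468 they lay between -0.06 and 0.04. The outermost limits of the 95% intervals over the 13 genes were -0.50 and 0.44 in BT549 and -0.46 and 0.48 in MDAMB468, both reached by MT-ATP8, the gene with the fewest counts. In HCC1806 estimates ran from -0.21 for MT-ND4L, a small membrane subunit of complex I, to 0.12 for MT-ATP8, and the outermost limits were -0.51 and 0.59. The tRNAs were measured less closely. MT-TP had log2 fold changes of 0.19, 0.03, -0.11 and -0.01 in BT549, HCC1806, MDAMB231 and MDAMB468, each with an SE of 0.25. The other 5 tested tRNA genes had SEs of up to 1.15. The highest estimate among them was 1.36 (SE 0.69) for MT-TC in MDAMB231, which had 2, 5 and 4 counts in shNT and 12, 9 and 9 in shADAR1 and was not called.

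MDAMB231 was the line where all 13 protein-coding genes had a negative estimate. Their median was -0.16, against 0 over all genes tested in that line, and the outermost limits of their 95% intervals were -0.66 and 0.38. MT-ND4, a proton-pumping subunit of complex I, had TMM-scaled CPM of 7978, 8729 and 10139 in shNT and 8137, 6949 and 7587 in shADAR1. Its log2 fold change was -0.24 (SE 0.11, 95% interval -0.47 to -0.01, edgeR adjusted p = 0.38). On the deposited RPKM, which carries no TMM factor, the MT-ND4 arms of MDAMB231 did not overlap, with 6049 to 7327 in shNT and 4973 to 5891 in shADAR1. On the scaled values shNT replicate 1 was below shADAR1 replicate 1, so the separation depended on the scaling.

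MT-ND5, the largest complex I subunit made in mitochondria, had TMM-scaled CPM of 4060, 4730 and 5590 in shNT of MDAMB231 and 4214, 3840 and 4283 in shADAR1. Its log2 fold change was -0.22 (SE 0.11, 95% interval -0.44 to -0.00, edgeR adjusted p = 0.42). These single-gene intervals are not adjusted for the number of genes. MT-ND6 gave the lowest estimate of the 13, -0.29 (SE 0.18), with TMM-scaled CPM of 608, 757 and 1030 against 612, 579 and 766. In all 13 genes the arms overlapped on the scaled values, and shNT replicate 3 was high in each of the 3 genes described here. Of the 13, all but MT-ND6 are listed on the plus strand. Genes of 1 precursor are not independent measurements, so 13 negative estimates are not 13 separate observations. The share ratio of MDAMB231, -0.18, became -0.09 without shNT replicate 3 and -0.24 without shNT replicate 1, which is also the smallest library of the study.

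Averaged over the 4 lines, the 13 protein-coding estimates were all negative but small: their median was -0.06 (0.02 over all genes) and they ranged from -0.12 for MT-ND4L to -0.00 for MT-ATP8. This mean includes MDAMB231 and is not a separate observation. The medians in BT549, HCC1806 and MDAMB468 were -0.004, -0.03 and 0.008. With the replicate block 11 of the 13 were negative, and also 11 without MDAMB231 shNT replicate 3 (median -0.02). The 95% interval was narrowest for MT-CO1, from -0.12 to 0.05 around -0.04, and widest for MT-ATP8, from -0.24 to 0.24. The test of differences between the 4 line effects called none of the 21 genes, so the MDAMB231 estimates were not shown to differ from those of the other lines.

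**Figure D5:**
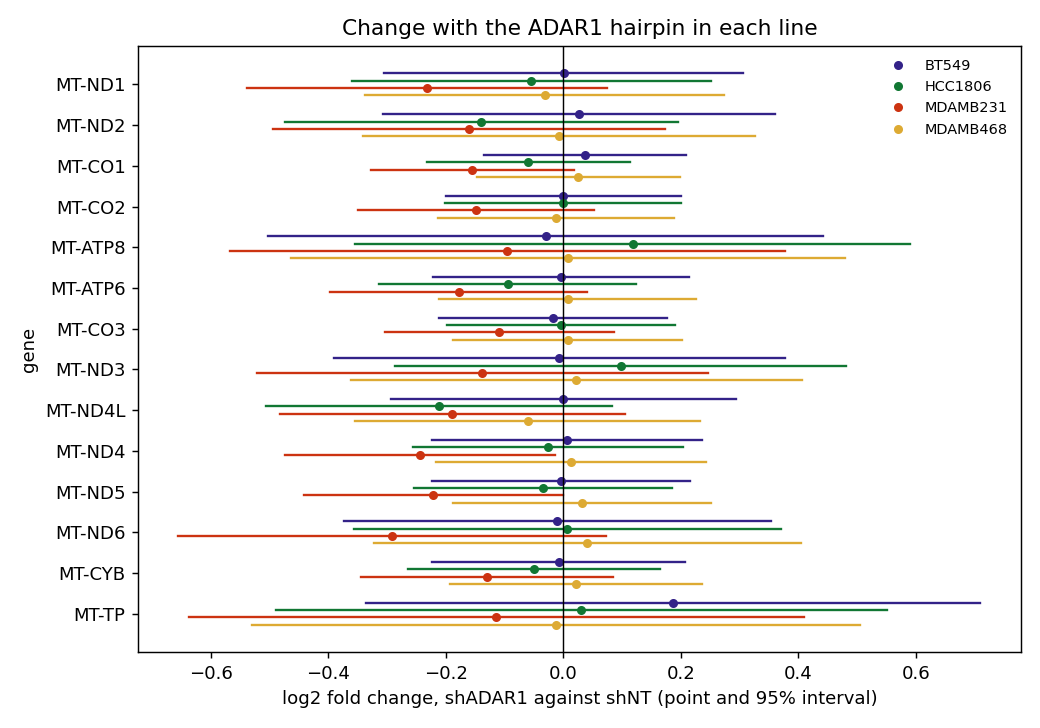
Log2 fold change of shADAR1 against shNT for the 13 protein-coding genes and MT-TP, 1 color per cell line; points are edgeR estimates and bars their 95% intervals. In MDAMB231 all 13 protein-coding points are below 0, and the other lines scatter around 0.

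Pairs of genes that share bases or a precursor were compared within libraries. MT-ATP8 and MT-ATP6 overlap by 46 bases, which is 22.2% of MT-ATP8 and 6.75% of MT-ATP6, and both are read from 1 mRNA. The overlap starts with the start codon of MT-ATP6 and ends with the stop codon of MT-ATP8.
MT-ATP8/MT-ATP6 overlap: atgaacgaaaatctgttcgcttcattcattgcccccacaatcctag

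MT-ATP8 had 15.6% to 36.1% of the RPKM of MT-ATP6 over the 24 libraries (median 25.1%). In BT549 the values were 15.6%, 17.8% and 29.8% in shNT and 20.6%, 19% and 23.7% in shADAR1, and the arms overlapped in every line. How the authors counted reads in the shared bases is not given in the sources used here. MT-ND4L and MT-ND4, which overlap by 7 bases and also share an mRNA, stood at 27% to 38.2%. In HCC1806 this ratio was 32.9%, 32.6% and 30.2% in shNT and 28.2%, 29.2% and 27% in shADAR1, so the arms did not overlap. In the other 3 lines they did, and the ratio was higher in shADAR1 in MDAMB231 by group mean (32.9% against 31.4%).

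MT-ND5 and MT-ND6 abut and are listed on opposite strands. Their ratio compares the products of the strands only if the counting used strand, which is not given. MT-ND6 had 50.2% to 72.5% of the RPKM of MT-ND5. In MDAMB468 the ratio was 56.1%, 61.2% and 59.8% in shNT and 64%, 53.3% and 60.2% in shADAR1. The arms overlapped in all 4 lines. The share of MT-ND1 among protein-coding counts had overlapping arms in 3 lines, while in MDAMB468 it was 7.93%, 7.99% and 8.07% in shNT and 7.79%, 7.6% and 7.89% in shADAR1, without overlap. That difference is 0.24 percentage points between the group means. Among the ratios and shares compared between arms, only this one and MT-ND4L to MT-ND4 in HCC1806 separated. No background share was made for such ratios, so neither separation is read as an effect of the knockdown.

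Nuclear genes of mitochondrial RNA metabolism, with some of DNA replication, were counted as 3 lists of 47 genes, all of which passed the filter. The list of 14 genes of transcription and its termination also held genes of mitochondrial DNA replication (POLG, POLG2, TWNK and SSBP1). None of the 14 was called in any line or in the mean by edgeR as fitted here. At an unadjusted p under 0.05 there was 1 of 14 in MDAMB231 (11.7% of all genes), 1 in MDAMB468 (3.76%) and 1 in the mean (12.8%). POLG, the mitochondrial DNA polymerase, was close to the threshold in MDAMB231 (log2 fold change 0.30, edgeR adjusted p = 0.068). It passed there under 6 of 14 alternatives: RLE scaling, upper-quartile scaling, at least 10 counts in every library, DESeq2, the replicate block, and without shADAR1 replicate 3. TFAM, the packaging and transcription factor of mitochondrial DNA, had 0.13 in the mean (edgeR adjusted p = 0.34), and POLG 0.07 (0.51). With the replicate block TFAM passed in the mean (edgeR adjusted p = 0.0046), and TFAM passed in MDAMB231 too.

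In the list of 16 genes of RNA cleavage and tRNA maturation, 1 was called, higher in BT549 (background of higher genes 0.131%), in MDAMB231 (0.637%) and in the mean (1.26%): HSD17B10, a dehydrogenase that is also a subunit of mitochondrial RNase P. It had TMM-scaled CPM of 29.2, 27.3 and 33.4 in shNT of BT549 and 61.2, 74.5 and 57.2 in shADAR1. In MDAMB231 it had 11.4, 12.8 and 13.5 in shNT and 35.5, 42 and 31.4 in shADAR1. The arms were far apart in both lines. Over all genes tested, shADAR1 stood wholly above shNT in 8.24% in BT549 and 7.19% in MDAMB231. The lists were chosen with earlier results of these data known, and this gene was to be named in any case. Its call beside the background is therefore not an independent test. HSD17B10 rose by a log2 fold change of 1.10 in BT549 (SE 0.13, edgeR adjusted p = 2.7e-05) and 1.52 in MDAMB231 (SE 0.13, adjusted p = 4.2e-07).

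In HCC1806 HSD17B10 had TMM-scaled CPM of 24.9, 29.7 and 31.1 in shNT and 36.2, 37.6 and 37.4 in shADAR1. In MDAMB468 it had 33.8, 42.4 and 40.3 against 47.6, 55.4 and 55.1. These arms did not overlap either, and over all genes shADAR1 stood wholly above shNT in 4.38% and 6.69%. The estimates, 0.37 and 0.44, did not pass (edgeR adjusted p = 0.80 and 0.71). With the replicate block the estimate in MDAMB468 did (edgeR adjusted p = 0.0221). In the mean it rose by 0.86 (SE 0.06, edgeR adjusted p = 8.3e-09). The other RNase P subunits gave no call: TRMT10C, the methyltransferase subunit, had 0.00 and PRORP, the nuclease, 0.03 in the mean. GTPBP3, a tRNA-modifying enzyme, had 0.12 (adjusted p = 0.34) and passed in the mean with the block (edgeR adjusted p = 0.0292). In MDAMB231 the block gave 3 calls in this list, HSD17B10 and GTPBP3 higher and MRM2, an rRNA methyltransferase, lower.

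Of the 17 genes of poly(A) tails, stability and decay, PDE12, an exonuclease that removes poly(A) tails, fell by 0.19 in the mean of the lines (SE 0.04, edgeR adjusted p = 0.0056, background of lower genes 1.7%) and none was called in a single line. PDE12 had TMM-scaled CPM of 57.4, 56.6 and 55.7 in shNT of BT549 and 47.6, 46.7 and 46 in shADAR1. It had 90.9, 85.8 and 84.2 in shNT of MDAMB231 and 68, 75.5 and 72.2 in shADAR1. The arms did not overlap in either line. DESeq2 and the replicate block called it in both, while with no filter on low counts its adjusted p in the mean was 0.053. At an unadjusted p under 0.05 edgeR had 1, 0, 2 and 0 genes of this list in BT549, HCC1806, MDAMB231 and MDAMB468. The shares over all genes were 6.42%, 4.35%, 11.7% and 3.76%. TACO1, a translational activator of MT-CO1, had 0.11 in the mean (edgeR adjusted p = 0.51). Whether HSD17B10 or PDE12 bears on the levels of the mitochondrial genes was not tested.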

How the data were processed

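Per the file headers, each library's file gives for every gene a whole-number count, a CPM value and an RPKM value. The authors' CPM values equal the count scaled by the library total (largest difference 4.7e-11 CPM), and the deposited RPKM equals the CPM per kilobase of listed length (largest difference 1.2e-10 RPKM). The submitters' processing notes name bcl2fastq, STAR, Subread, featureCounts and edgeR. The genome build, the annotation and the strand setting are not given in the sources used here. Reads shared with nuclear copies of mitochondrial sequence were not analysed here.

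Counts were tested with edgeR 4.0.16 in R 4.3.3: filterByExpr over the 8 groups (21352 genes kept), TMM scaling (factors 0.924 to 1.12), 1 coefficient per group and the quasi-likelihood F test, two-sided, with Benjamini-Hochberg adjustment over all genes tested and a threshold of 0.05. All 24 libraries shared the estimate of the spread (biological coefficient of variation 0.176). Each standard error is the absolute log2 fold change over the square root of F, in this fit without pairing of replicates. On data simulated for BT549 from 20850 genes, 200 genes with a mean CPM over 1 were changed 2-fold. Of these, 74% were recovered, with 6 false calls. The tested tRNA genes other than MT-TP had lower means, the highest being 0.757 CPM for MT-TY. The 74% does not cover them. No replicate pair looked like 1 library deposited again, since chi-square over degrees of freedom was 11.9 or more. Total counts per library ran from 10370645 to 97218217.

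The genes and lists were chosen with earlier results of these data known. Named with values were both rRNAs, all 13 protein-coding genes, tRNA genes past the threshold in any comparison or among the 3 highest and 3 lowest by mean CPM, the RNase P subunits HSD17B10, TRMT10C and PRORP, and per nuclear list the 2 genes with the smallest p in the mean. MT-TF, MT-TT, MT-TG and MT-TS2 were named after their values were seen, as were the genes of single list calls. To check for pairing, deviations from group means were correlated between libraries of equal number: r was 0.139, 0.158 and 0.25 for BT549, 0.242, 0.332 and 0.443 for HCC1806, and 0.204, 0.348 and 0.149 for MDAMB231, whose numbers were read as pairs. For MDAMB468 it was 0.165, 0.166 and 0.0651 over all genes tested, the last under 0.1, and 0.379, 0.345 and 0.213 over the 12140 genes with a mean log2 CPM over 1, so whether its numbers pair depends on the genes used. Alternatives were RLE and upper-quartile scaling, scaling without the 37 mitochondrial rows and the cytosolic rRNA rows (the share instead without rRNA rows only), DESeq2 1.42.0, no filter, at least 10 counts in every library, a replicate block, only the 6 libraries of a line, and leaving out each library.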

Additional observations from a re-analysis of the deposited data

Results flagged for a closer look

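HSD17B10, the nuclear gene of an RNase P subunit, was the 1 gene named here whose response differed between the lines by edgeR as fitted here. The joint test of the 4 line effects, a test of the difference itself, gave an edgeR adjusted p = 0.0163. HSD17B10 was chosen with earlier results of these data known, so this p-value is not independent of that choice. Its log2 fold change was 1.10 for BT549, 0.37 for HCC1806, 1.52 for MDAMB231 and 0.44 for MDAMB468, and all 12 shADAR1 libraries lay above all shNT libraries of their own line. Over the 31 alternatives of this test the adjusted p ran from 8.1e-08 to 0.0705. It was 0.055 without HCC1806 shADAR1 replicate 1, 0.0516 without MDAMB231 shADAR1 replicate 1, 0.0585 without MDAMB231 shNT replicate 1 and 0.0705 without MDAMB231 shNT replicate 2, and under the threshold in the other 27. ADAR itself was not called by the joint test (edgeR adjusted p = 0.622), and it passed under 1 of 31 alternatives.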

How the results depend on the processing

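The count of 0 mitochondrial genes called by knockdown stayed at 0 in every line, in the mean and in the test between lines under all alternatives run, including each library left out in turn (0 to 0). The count of genes differing between lines in shNT was 16, and 15 with no filter, 12 with at least 10 counts in every library, 17 with scaling that left out all mitochondrial rows and the cytosolic rRNA rows and 13 to 17 with a library left out; this test was not run with the block. With the replicate block, for libraries paired by number, the log2 share ratios were 0.00241, -0.0299, -0.179 and -0.00575 in BT549, HCC1806, MDAMB231 and MDAMB468, and 0 mitochondrial genes were called in each line; the block changed calls of nuclear genes only where stated beside them, and also called TBRG4 in MDAMB231 and POLG between lines (edgeR adjusted p = 0.0473). Leaving out single libraries moved the share ratios from -0.0769 to 0.117, from -0.0827 to 0.0156, from -0.242 to -0.0913 and from -0.064 to 0.0439, so their sign held only in MDAMB231. Of 1771 single-gene values of mitochondrial genes under alternatives, 0 passed the threshold and 216 had the other sign from an estimate that was not called. Of the tRNA genes, 16 had too few counts to test; the part of depth in this was not tested.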
